A study of Homo sapiens with 8 samples.

Results

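The genes described here are 39 members of the glycolytic pathway and of the transcriptional response to low oxygen that lie outside chromosome 10, taken by symbol from a table of 60617 gene identifiers. Chromosome 10 genes of the same pathways were kept apart because that chromosome is shifted in 1 of the knockout lines, sgKMT2B. The median log2 change of its genes there was -0.33 against the unedited line. It was not the only shifted chromosome: the medians of chromosomes 13 and 20 in that line were -0.39 and 0.30. In the line sgKDM6A, those of chromosomes 9, 18 and 21 were 0.28, 0.25 and -0.21. RNA was sequenced from HEK293T, an embryonic kidney line that carries viral genes and is widely used for transfection. The 4 groups, with 2 libraries each, were the unedited line (WT) and its derivatives sgKDM5C, sgKDM6A and sgKMT2B, named for the gene that a guide RNA was directed at; no treatment, dose or oxygen level is given for any group, and all were kept in the same serum-supplemented medium. The sources used here do not give where each guide cuts, or whether a knockout line is 1 clone or a pool of cells. The labels do not say that replicates were separate cultures, so the p-values reflect the spread between these samples alone, and that spread may be technical.

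Glycolysis splits glucose into pyruvate: transporters bring glucose in, hexokinase traps it, the upper steps spend ATP and the lower steps earn it back, and lactate dehydrogenase and the monocarboxylate transporters dispose of pyruvate as lactate. Many of these genes carry hypoxia response elements and are driven by the hypoxia-inducible factors, whose alpha subunits (HIF1A and EPAS1, also called HIF-2 alpha) are marked for destruction by the EGLN prolyl hydroxylases while oxygen is present. The enzymes targeted in these lines act on histone tails: KDM5C and KDM6A take methyl groups off lysines 4 and 27 of histone H3, and KMT2B is a methyltransferase of lysine 4. KDM5C and KDM6A belong to the same class of oxygen-using enzymes as the EGLN proteins. Control of HIF1A and EPAS1 by the EGLN enzymes acts on protein, which RNA counts do not measure.

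Levels are CPM (counts scaled to a common library total) after TMM correction of library size, and per kilobase of exon where genes are compared with each other. WT replicate 2 was the shallowest library, with 15868353 counts, and sgKDM6A replicate 2 the deepest, with 27591724; the 39 members took 1.29% to 1.47% of them. Each targeted gene was lowest in its own line: KDM5C was at 331 and 312 CPM in sgKDM5C and at 440 and 471 CPM in WT, KDM6A at 10.3 and 11.5 CPM in sgKDM6A and at 54.2 and 61.2 CPM in WT, and KMT2B at 63.0 and 75.5 CPM in sgKMT2B and at 146 and 137 CPM in WT. Of 8 kidney and neuronal markers known from HEK293T, 6 to 8 had any count in every group, with a summed level of 112 to 135 CPM. PAX8 had 4 counts over the 8 libraries and LHX1 had 10. NEFM was at 5.58 and 5.72 CPM in WT. In the knockout libraries NEFM was at 0 to 0.0788 CPM, with no count in 5 of them. Of 9 markers of blood, endothelial, stromal and liver cells, the summed level was 0.214 to 1.3 CPM in WT, sgKDM5C and sgKDM6A and 2.77 to 4.3 CPM in sgKMT2B. CD3E was at 0 everywhere. The part of these low levels in the results below was not tested.

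The short sequences that the hypoxia-inducible factors are known to bind hold ACGTG or GCGTG. These letters were looked for on both strands in the 250 bases before the RefSeq transcript start of each gene, for the 32 members with an entry in RefSeq's promoters of GRCh38.p14. That start can lie inside the gene as GENCODE 29 draws it, whose first base is the one given for each gene below. All 250 bases of the windows of HK2, ENO2, CA12 and ANKRD37 lie in GENCODE exons, against 5 bases for EPAS1 and 33 for SLC16A7. The sites are shown for the members with an entry that were called with a log2 change of at least 1 in size and hold the letters, because their spacing and number differ between members that moved alike. Each line gives 30 bases, 5′ to 3′ on the gene's strand, with capitals marking ACGTG or GCGTG, or CACGT or CACGC where the match is on the other strand.
HK2, chr2:74833886-74833915, plus strand: agccacggaccaCACGTcccatctcaggcg
HK2, chr2:74834063-74834092, plus strand: agccaatggGCGTGcgCACGTcactgatcc
ENO2, chr12:6914450-6914479, plus strand: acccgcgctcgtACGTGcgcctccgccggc
CA12, chr15:63382063-63382092, minus strand: gcggatctcaccCACGCctgccagcagctc
EPAS1, chr2:46297278-46297307, plus strand: gggcctgccggcGCGTGcccgcccacacac
ANKRD37, chr4:185396667-185396696, plus strand: ggcgccgggctcCACGTGccagtgtttgtg
ANKRD37, chr4:185396686-185396715, plus strand: cagtgtttgtgtACGTGcggccgtggcggg

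In HK2 the first match began 229 bases before the RefSeq start and the last 48 bases before it. ANKRD37 held 3 matches, 2 of them overlapping as CACGTG, the first 162 and the last 143 bases before its RefSeq start. ENO2, CA12 and EPAS1 held 1 match each, beginning 118, 234 and 117 bases before theirs. SLC16A7 held none. A single RefSeq start was read per gene, and that of SLC16A7 lies inside the gene as GENCODE draws it. Whether these cells use that start was not tested. The SLC16A7 window stands apart from those of most members in its letters. It has 1 CG pair and a GC content of 35.2%, where the median member has 22 CG pairs and 68.4%. The PDK1 window also held no match and was close to it, with 5 CG pairs and 35.6%, and PDK1 passed in no line. The part of the SLC16A7 window outside annotated exons is shown for its contrast with most members.
SLC16A7, chr12:59689120-59689336, plus strand: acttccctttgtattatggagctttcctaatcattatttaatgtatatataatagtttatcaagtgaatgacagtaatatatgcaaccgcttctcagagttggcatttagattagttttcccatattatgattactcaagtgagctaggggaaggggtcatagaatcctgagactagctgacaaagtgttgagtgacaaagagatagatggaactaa

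The letters occurred in 22 of the 32 member windows (68.8%), in 56.7% of the windows of all tested genes and in 43.1% of all windows of that length. Median GC content followed the same order, at 68.4%, 65.2% and 58%, so the shares are not matched for base composition. Members that passed in no line with all libraries also held matches: LDHA and ALDOC 5 each, PGK1 3, and GAPDH and ENO1 2 each. PFKM, TPI1, PKM, LDHB, SLC2A1, SLC16A3, PDK1 and P4HA2, which did not pass either, held none, nor did EGLN3, which did pass. A relation of the letters to the changes was not tested. A match is a description of letters, not a bound site. No entry was found for SLC2A3, SLC16A1, PFKFB2, BNIP3L, VEGFA, NDRG1 and HILPDA.

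The abundant enzymes of the pathway, GAPDH, ENO1, TPI1, PKM, PGK1 and LDHA, passed the test against WT in no line. The members that moved furthest were the transporters SLC2A3 and SLC16A7 and, by smaller amounts, ENO2, NDRG1, EPAS1, HK2, CA12 and ANKRD37. All members but CA9 passed the filter on low counts. In sgKDM5C 8 of 38 members changed against WT at an adjusted p under 0.05 (edgeR's quasi-likelihood test), 4 up and 4 down. Of all 17527 tested genes, 22.6% changed in that comparison, 11.1% up and 11.5% down. In sgKDM6A 3 members rose and 9 fell, 12 in all, beside 27.2% of all genes (12.6% up, 14.6% down). In sgKMT2B 4 rose and 7 fell, 11 in all, beside 28.1% (13.7% up, 14.5% down). The share of members called was therefore near that of all genes in each line: 21.1%, 31.6% and 28.9%. Their median log2 change was 0.00, -0.05 and -0.07, beside 0.02, 0.01 and 0.00 over all genes. Over genes averaging 5 CPM or more, 23.5%, 26.5% and 32.4% of 34 members were called, against 28.4%, 34.1% and 35.2% of 11249 genes. The 3 comparisons share the WT libraries. In bulk RNA, fewer cells with a transcript and less of it per cell cannot be told apart.

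The counts lean on single libraries. Without sgKDM5C replicate 1, 5 members were called in sgKDM5C. Without sgKDM6A replicate 1, 7 were called in sgKDM6A. In sgKMT2B the count was 7 without WT replicate 2, 4 without sgKMT2B replicate 1 and 6 without sgKMT2B replicate 2. The share of all genes called also fell in those fits, to 9.9%, 13.4%, 19.2%, 12.8% and 17.9% in the same order. The members that stayed called under every setting tried and without any single library were HK2, ENO2, CA12 and NDRG1 in sgKDM5C; SLC2A3, SLC16A7, PFKL, ENO2, EGLN3, CA12 and NDRG1 in sgKDM6A; and ENO2, EPAS1, VEGFA and NDRG1 in sgKMT2B.

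**Figure D1:**
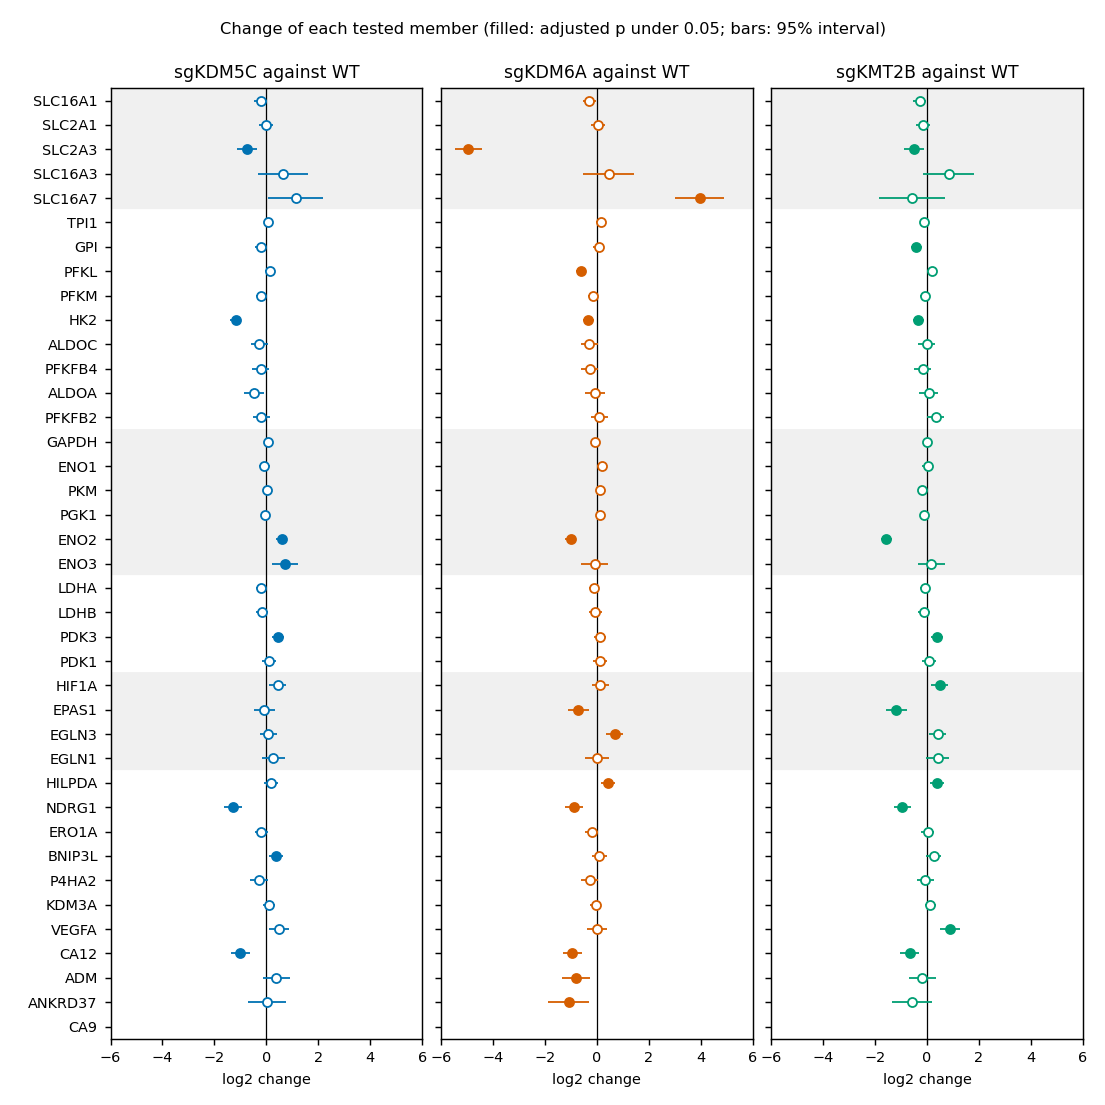
Log2 change of each of the 38 tested members in the 3 knockout lines against WT, ordered by role and then by level in WT. Points are fitted changes, bars their 95% intervals, and filled points passed the test. Most points sit near 0, SLC2A3 and SLC16A7 in sgKDM6A lie furthest out at -4.94 and 3.97, and ENO2 lies to the right in sgKDM5C and to the left in the other lines.

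The transporters held the largest changes of the set, both in sgKDM6A and in opposite directions. SLC2A3 (ENSG00000059804, GRCh38 chromosome 12, 7919230 to 7936275) encodes GLUT3, a glucose transporter with high affinity that is prominent in neurons. It was at 16.9 and 19.3 CPM in WT, 9.47 and 12.2 in sgKDM5C and 0.555 and 0.607 in sgKDM6A, while sgKMT2B had 12.4 and 13.2. Both libraries of every knockout lay below both of WT, and the sgKDM6A libraries held 31 counts in all. The log2 change was -4.94 in sgKDM6A (SE 0.24, adjusted p = 2.6e-08), -0.74 in sgKDM5C (SE 0.18, adjusted p = 0.00927) and -0.50 in sgKMT2B (SE 0.17, adjusted p = 0.046). SLC2A3 has a near-identical neighbouring copy, SLC2A14, and reads can be lost or shared between such copies. In sgKDM5C the adjusted p was 0.0522 with WT replicate 2 left out and 0.105 with sgKDM5C replicate 1 left out. The sgKMT2B call was lost without any 1 of its 4 libraries (adjusted p = 0.0554 to 0.223), with DESeq2 (0.0756) and with no filter on low counts (0.0808).

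SLC2A1, which encodes GLUT1, the widespread basal glucose transporter and a classical hypoxia target, did not pass in any line, with changes of -0.02, 0.06 and -0.17 in sgKDM5C, sgKDM6A and sgKMT2B. Its libraries ran from 45.2 to 59.5 CPM. SLC2A3 went from 20.8% ± 1.00 of the reads per exon length of the 2 genes in WT (SD, n = 2) to 0.804% ± 0.133 in sgKDM6A. In sgKDM5C the share was 13.9% ± 3.87 and in sgKMT2B 17.2% ± 1.41.

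Among the monocarboxylate transporters, which carry lactate and pyruvate across the membrane, SLC16A1 (MCT1) was the most abundant transporter of the set in WT per kilobase and SLC16A7 (MCT2, chromosome 12, 59596067 to 59789855) the least. SLC16A1 was at 276 and 324 CPM in WT, 284 and 231 in sgKDM5C and 261 and 231 in sgKDM6A, while sgKMT2B had 261 and 231, and its changes of -0.22, -0.28 and -0.29 did not pass. Without WT replicate 1 it passed in sgKDM6A (-0.39, adjusted p = 0.0387) and in sgKMT2B (-0.39, adjusted p = 0.0383), as it did with no filter on low counts (0.0405 and 0.0436). SLC16A7 was at 0.289 and 0.520 CPM in WT, 1.17 and 0.530 in sgKDM5C and 6.03 and 6.22 in sgKDM6A, while sgKMT2B had 0.281 and 0.236. It had 15 counts over both WT libraries and 326 over both sgKDM6A libraries. The rise in sgKDM6A was 3.97 on the log2 scale (SE 0.44, 95% interval 3.02 to 4.92, adjusted p = 4.2e-05). In sgKDM5C the change of 1.13 did not pass (adjusted p = 0.118); without sgKDM5C replicate 2 it was 1.57 (adjusted p = 0.0421). Even in sgKDM6A, SLC16A7 made up 0.96% ± 0.105 of the reads per exon length of SLC16A1, SLC16A3 and SLC16A7. SLC16A3 (MCT4), the lactate exporter that hypoxia induces in many cells, stayed between 0.868 and 2.11 CPM and passed in no line.

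**Figure D2:**
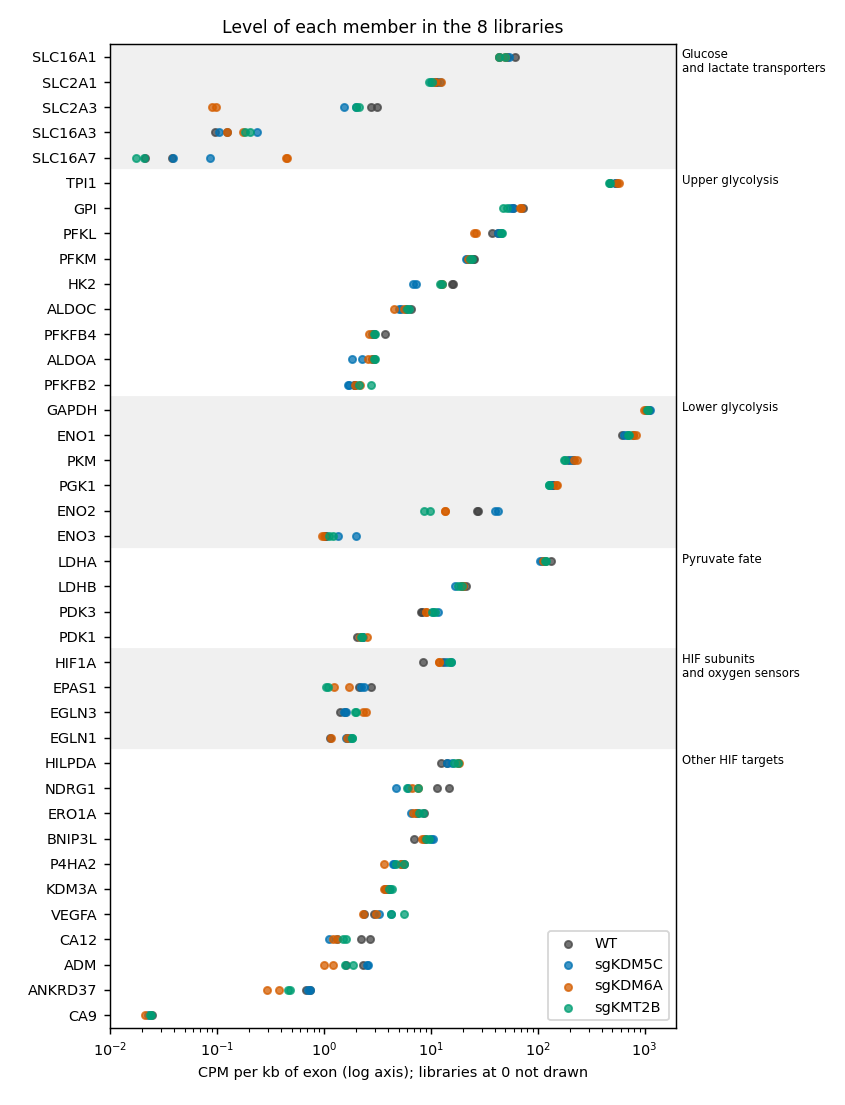
Level of each of the 39 members in the 8 libraries, in CPM per kilobase of exon on a log axis, grouped by role; each point is 1 library coloured by group. GAPDH, ENO1 and TPI1 lie at the right, and for GAPDH and ENO1 every knockout line overlaps WT. SLC2A3 and ENO2 show groups set apart, and for SLC16A7 sgKDM6A lies apart from the rest.

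Hexokinase 2 (HK2, ENSG00000159399, chromosome 2, 74833981 to 74893359), the inducible isoenzyme that traps glucose as its phosphate, fell in all 3 lines and most in sgKDM5C. It was at 97.7 and 95.1 CPM in WT, 43.7 and 41.4 in sgKDM5C and 76.4 and 77.7 in sgKDM6A, while sgKMT2B had 77.7 and 74.3. The sgKDM5C libraries lay below all others, and the sgKDM6A and sgKMT2B libraries overlapped each other below WT. The log2 change was -1.18 in sgKDM5C (SE 0.10, adjusted p = 1.34e-05), where the median over chromosome 2 was -0.13. It was -0.32 in sgKDM6A (SE 0.10, adjusted p = 0.024) and -0.34 in sgKMT2B (SE 0.10, adjusted p = 0.0175). Compared directly, the log2 difference of sgKDM5C from sgKDM6A was -0.86 (SE 0.10, adjusted p = 4.83e-05). The difference from sgKMT2B was -0.84 (SE 0.10, adjusted p = 4.3e-05). The smaller falls were lost without some libraries. In sgKDM6A these were WT replicate 1 (adjusted p = 0.0572), sgKDM6A replicate 1 (0.146) and sgKDM6A replicate 2 (0.102), and the call was also lost with no filter (0.0529) and with only the 2 groups in the fit (0.0565). In sgKMT2B they were sgKMT2B replicate 1 (0.0902) and replicate 2 (0.134).

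The share of HK2 in hexokinase reads depended on its partner HK1, the constitutive isoenzyme, which lies on chromosome 10. HK2 made up 18% ± 0.103 of the reads per exon length of HK1 and HK2 in WT (SD, n = 2). The share was 9.89% ± 0.688 in sgKDM5C, 15.9% ± 0.457 in sgKDM6A, and higher in sgKMT2B at 25.4% ± 1.99. HK1 was at 460 and 452 CPM in WT and at 221 and 245 CPM in sgKMT2B (log2 change -0.97, SE 0.09, adjusted p = 6.26e-06). In sgKMT2B, then, HK2 fell while its share of the pair was above that of WT in both libraries.

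Phosphofructokinase commits sugar to the pathway and exists as liver (PFKL), muscle (PFKM) and platelet (PFKP) types. PFKL (chromosome 21, 44300051 to 44327376) was at 380 and 334 CPM in WT, 381 and 402 in sgKDM5C and 227 and 237 in sgKDM6A, while sgKMT2B had 402 and 416. The sgKDM6A libraries lay below the rest (log2 change -0.62, SE 0.09, adjusted p = 0.000282), where the median over chromosome 21 was -0.21. PFKM passed in no line (-0.21, -0.13 and -0.07 in sgKDM5C, sgKDM6A and sgKMT2B). PFKP, on chromosome 10, fell in sgKMT2B from 325 and 282 to 173 and 177 CPM (-0.79, SE 0.09, adjusted p = 6.18e-05). Without WT replicate 1, PFKL also passed in sgKMT2B (0.30, adjusted p = 0.0243). PFKL made up 31.3% ± 0.519 of the family's reads per exon length in WT, 25.9% ± 0.494 in sgKDM6A and 43.3% ± 0.134 in sgKMT2B.

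**Figure D3:**
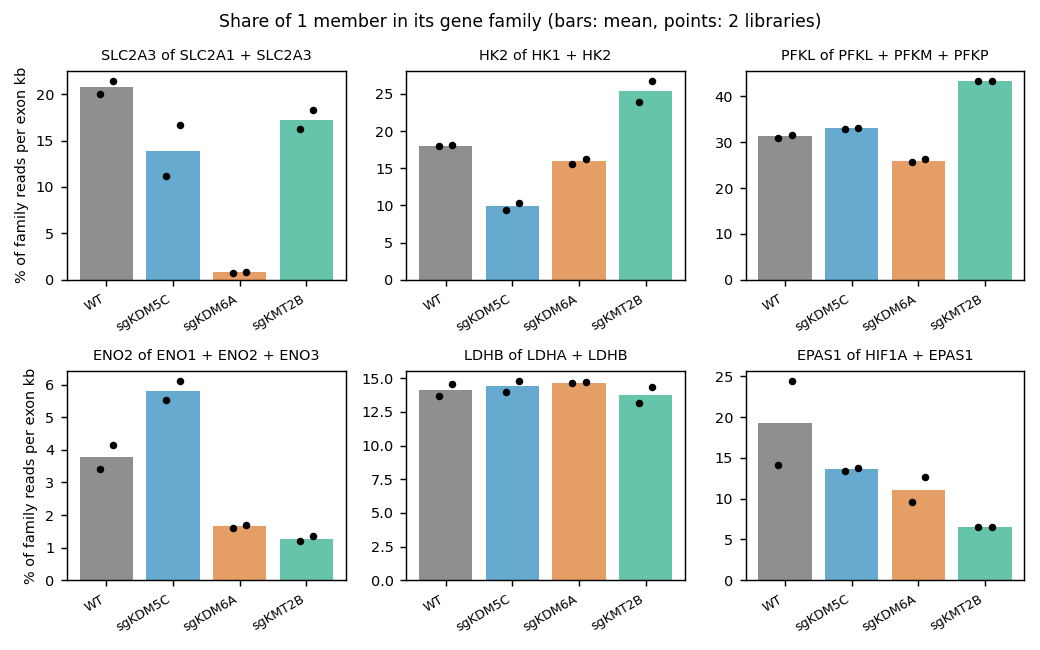
Share of 1 member in the reads per exon length of its gene family, in percent, by group; bars are means and points the 2 libraries of each group. SLC2A3 drops to 0.804% of its pair in sgKDM6A, ENO2 goes up in sgKDM5C and down in the other lines, HK2 and PFKL take larger shares in sgKMT2B, and LDHB stays between 13.2% and 14.8%.

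Of the remaining members of the upper pathway, only GPI passed. GPI, which turns glucose 6-phosphate into fructose 6-phosphate, fell in sgKMT2B (log2 change -0.41, SE 0.10, adjusted p = 0.00721), a call lost without sgKMT2B replicate 1 (adjusted p = 0.0887). Without WT replicate 2 it also passed in sgKDM5C (-0.36, adjusted p = 0.0129). TPI1, triose phosphate isomerase and the most abundant of this step group per kilobase, was at 1445 and 1286 CPM in WT, 1446 and 1428 in sgKDM5C and 1545 and 1485 in sgKDM6A, while sgKMT2B had 1255 and 1272. PFKFB2, a bifunctional enzyme that sets the fructose 2,6-bisphosphate level and the least abundant here, was at 20.1 and 19.4 CPM in WT, 17.3 and 17.2 in sgKDM5C and 19.9 and 22.3 in sgKDM6A, while sgKMT2B had 28.1 and 21.8. Neither passed against WT. PFKFB4, ALDOA and ALDOC did not pass either. The ALDOA counts are uncertain, at 7.23 to 11.9 CPM, because 42.3% of its exon bases are shared with an overlapping gene model on the same strand.

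In the lower pathway the calls against WT were those of its less abundant enolases. GAPDH, the most abundant member of the whole set per kilobase, was at 3266 and 3043 CPM in WT, 3372 and 3173 in sgKDM5C and 3082 and 2978 in sgKDM6A, while sgKMT2B had 3118 and 3200. Each knockout line overlapped WT, and the 95% intervals of its log2 change were -0.10 to 0.21 in sgKDM5C, -0.21 to 0.10 in sgKDM6A and -0.15 to 0.16 in sgKMT2B. PGK1, ENO1 and PKM, the kinases and the main enolase that follow it, also did not pass in any line with all libraries, with changes between -0.19 and 0.21. WT replicates differed for ENO1, at 4125 and 3261 CPM. Left to 1 WT library, some of these genes passed: without WT replicate 1, TPI1 (0.24, adjusted p = 0.0262), ENO1 (0.39, 0.00189) and PKM (0.23, 0.0455) in sgKDM6A. With no filter on low counts ENO1 also passed there (0.0309). Without WT replicate 2, ENO1 passed in sgKDM5C (-0.25, adjusted p = 0.0271) and PKM in sgKMT2B (-0.27, 0.0267). GAPDH, TPI1, PGK1, ENO1 and PKM have many processed pseudogenes, to which reads can be lost.

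ENO2, the neuronal enolase (ENSG00000111674, chromosome 12, 6913745 to 6923698), moved in opposite directions between lines. It was at 118 and 115 CPM in WT, 171 and 180 in sgKDM5C and 58.5 and 57.8 in sgKDM6A, while sgKMT2B had 36.8 and 41.8. No 2 groups overlapped. It rose by 0.59 on the log2 scale in sgKDM5C (SE 0.10, adjusted p = 0.0011), and its change was -1.0 in sgKDM6A (SE 0.10, adjusted p = 1.68e-05) and -1.57 in sgKMT2B (SE 0.10, adjusted p = 2.76e-07). The direct comparisons passed as well: sgKDM5C was above sgKMT2B by 2.16 (SE 0.10, adjusted p = 1.39e-08), above sgKDM6A by 1.60 (SE 0.10, adjusted p = 2.17e-07), and sgKDM6A above sgKMT2B by 0.56 (SE 0.10, adjusted p = 0.000962).

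In every group ENO2 remained a small part of enolase reads: 3.79% ± 0.537 per exon length in WT, 5.82% ± 0.421 in sgKDM5C, and lower at 1.65% ± 0.074 in sgKDM6A and 1.28% ± 0.121 in sgKMT2B, with ENO1 supplying nearly all of the rest. ENO3, the muscle enolase and the least abundant gene of the lower pathway, was at 4.50 and 4.35 CPM in WT, 5.86 and 8.63 in sgKDM5C and 4.28 and 4.14 in sgKDM6A, while sgKMT2B had 4.74 and 5.20. Its rise in sgKDM5C (0.71, SE 0.23, adjusted p = 0.0442) rested on replicate 2 of that line: without it the change was 0.39 (adjusted p = 0.367). The call was also lost without either WT library (adjusted p = 0.108 and 0.146), with DESeq2 (0.0753) and with only the 2 groups in the fit (0.0698).

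At the exit of the pathway, LDHA, which makes lactate, was at 719 and 827 CPM in WT, 684 and 647 in sgKDM5C and 704 and 728 in sgKDM6A, while sgKMT2B had 739 and 725. It passed in no line with all libraries; without WT replicate 1 it passed in sgKDM5C (-0.31, adjusted p = 0.0141). LDHB, which favours the reverse reaction, held 14.2% ± 0.630 of the pair's reads per exon length in WT and 13.8% to 14.7% on average in the knockout lines, though 33.4% of its exon bases are shared with another gene model. The pyruvate dehydrogenase kinases close the way from pyruvate into the mitochondrial cycle. PDK1, a hypoxia-induced kinase and the least abundant of these 4 genes, did not pass. It was at 30.7 and 33.7 CPM in WT and 34.8 and 33.7 in sgKDM5C. In sgKDM6A it had 32.1 and 37.5, and in sgKMT2B 34.0 and 33.3. PDK3 rose from 41.3 and 40.2 CPM to 57.8 and 52.5 CPM in sgKDM5C (0.44, SE 0.11, adjusted p = 0.012) and to 54.8 and 51.0 CPM in sgKMT2B (0.38, SE 0.11, adjusted p = 0.0207). Those calls were lost without sgKDM5C replicate 1 (adjusted p = 0.119), and without WT replicate 2 (0.0633), sgKMT2B replicate 1 (0.162) or replicate 2 (0.0568). In sgKDM6A its change was 0.13 (adjusted p = 0.387).

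Among the regulators of the oxygen response, EPAS1 fell in sgKDM6A and sgKMT2B and HIF1A rose in sgKMT2B. EPAS1 (ENSG00000116016, chromosome 2, 46293667 to 46386703) was at 15.6 and 20.1 CPM in WT, 16.4 and 17.4 in sgKDM5C and 9.16 and 12.5 in sgKDM6A, while sgKMT2B had 7.91 and 7.65. Its sgKDM5C libraries lay between those of WT, and those of the other lines lay below. The change was -1.19 in sgKMT2B (SE 0.19, adjusted p = 0.000511) and -0.71 in sgKDM6A (SE 0.18, adjusted p = 0.0126). With WT replicate 2 left out the latter was -0.52 (adjusted p = 0.105), and with sgKDM6A replicate 1 left out -0.50 (adjusted p = 0.138).

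HIF1A, the most abundant of the regulators, was at 66.9 and 43.8 CPM in WT, 72.04 and 79.12 in sgKDM5C and 61.0 and 61.4 in sgKDM6A, while sgKMT2B had 79.4 and 76.9. The WT libraries were the furthest apart of any group, and the sgKDM6A libraries lay between them. The rise in sgKMT2B was 0.49 (SE 0.15, adjusted p = 0.029). It was 0.22 without WT replicate 2 (adjusted p = 0.187), and the call was also lost without sgKMT2B replicate 1 (0.132) or replicate 2 (0.0822). In sgKDM5C the change of 0.44 narrowly missed (adjusted p = 0.0528), and it passed with DESeq2 (0.0295) and without WT replicate 1 (0.79, adjusted p = 0.000962). Without that library HIF1A passed in sgKDM6A too (0.49, adjusted p = 0.00952). EPAS1 made up 19.3% ± 7.31 of the reads per exon length of both subunits in WT and 6.56% ± 0.00911 in sgKMT2B.

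The EGLN prolyl hydroxylases mark the alpha subunits, and EGLN3 is itself a hypoxia target. It rose in sgKDM6A from 10.5 and 11.6 to 18.2 and 17.3 CPM (0.69, SE 0.15, adjusted p = 0.00423), and its change of 0.41 in sgKMT2B did not pass (adjusted p = 0.0558), though it did among genes with a mean of 1 CPM or more (0.048). EGLN1, the main oxygen sensor and the least abundant of the regulators per kilobase in WT, was at 8.22 and 12.0 CPM in WT, 12.6 and 11.6 in sgKDM5C and 12.0 and 8.43 in sgKDM6A, while sgKMT2B had 13.3 and 13.3. It passed in no line.

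**Figure D4:**
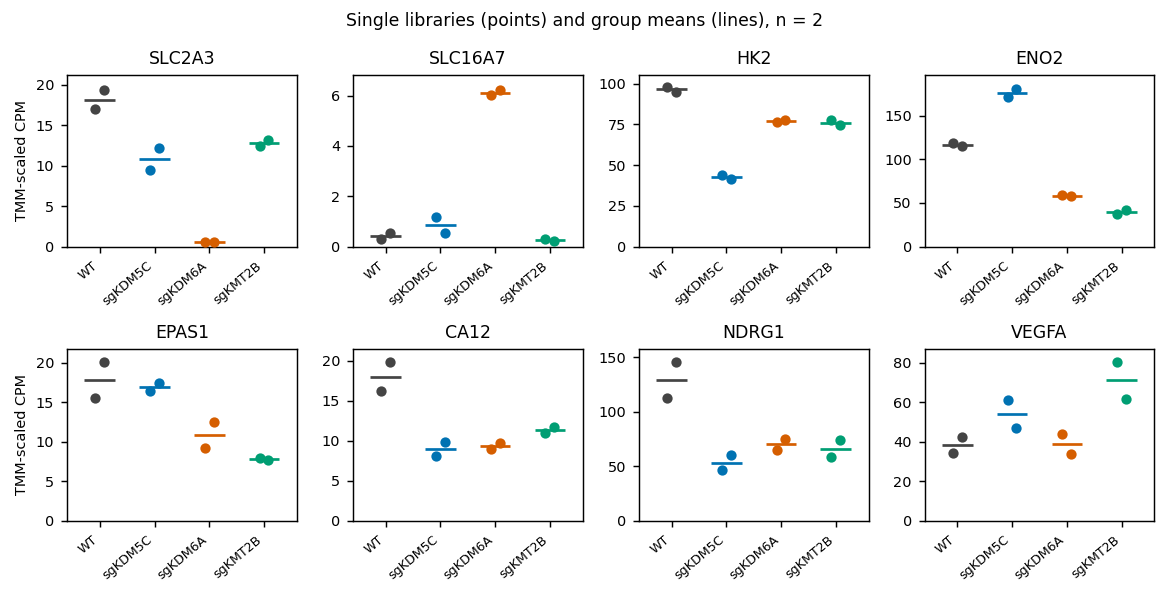
TMM-scaled CPM of 8 members in each library; points are libraries and lines group means (n = 2), each panel with its own axis from 0. SLC2A3, HK2, CA12 and NDRG1 are lower than WT in every knockout line, ENO2 is higher in sgKDM5C and lower in the others, and VEGFA is highest in sgKMT2B.

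Of the other hypoxia targets, 2 fell in all 3 lines. NDRG1 (ENSG00000104419, chromosome 8, 133237171 to 133302022), a stress-induced gene linked to differentiation and often used as a readout of the hypoxia response, was at 113 and 145 CPM in WT, 46.6 and 60.0 in sgKDM5C and 65.37 and 74.96 in sgKDM6A, while sgKMT2B had 58.9 and 73.9. Every knockout library lay below both WT libraries, and the knockout lines overlapped one another. The changes were -1.27 (SE 0.16, adjusted p = 0.000181), -0.88 (SE 0.15, adjusted p = 0.0012) and -0.96 (SE 0.16, adjusted p = 0.000584), in the last case beside a chromosome 8 median of 0.17. CA12 (ENSG00000074410, chromosome 15, 63321378 to 63382161), a carbonic anhydrase of the cell surface that helps export acid, was at 16.2 and 19.9 CPM in WT, 8.16 and 9.80 in sgKDM5C and 8.92 and 9.75 in sgKDM6A, while sgKMT2B had 11.0 and 11.7. It too was below WT in all 6 knockout libraries. The changes were -1.0 (SE 0.17, adjusted p = 0.00151), -0.94 (SE 0.17, adjusted p = 0.00147) and -0.66 (SE 0.17, adjusted p = 0.011), the last lost without WT replicate 2 (adjusted p = 0.0839) or sgKMT2B replicate 1 (0.093).

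With SLC2A3 and HK2, these were the 4 members called downward in all 3 lines, and no member was called upward in all 3. The share of all genes called alike in all 3 lines was not counted, so these counts have no baseline. The lines share the WT libraries, so these falls are not independent of one another.

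VEGFA rose in 1 line and HILPDA in 2. VEGFA, the angiogenic growth factor, was at 34.4 and 42.3 CPM in WT, 61.2 and 46.8 in sgKDM5C and 44.1 and 33.6 in sgKDM6A, while sgKMT2B had 80.5 and 61.7. It rose in sgKMT2B (0.90, SE 0.18, adjusted p = 0.00224). Its change of 0.50 in sgKDM5C missed the threshold (adjusted p = 0.0575) but passed with DESeq2 (0.0333) and without sgKDM5C replicate 2 (0.67, adjusted p = 0.0319). HILPDA, a lipid droplet protein and the most abundant of these targets per kilobase, was at 29.3 and 25.9 CPM in WT, 32.6 and 29.5 in sgKDM5C and 37.8 and 37.4 in sgKDM6A, while sgKMT2B had 37.3 and 34.4. It rose in sgKDM6A (0.44, SE 0.12, adjusted p = 0.0181) and in sgKMT2B (0.38, SE 0.12, adjusted p = 0.0377), and both calls were lost without WT replicate 2 (0.0956 and 0.169) or either library of the line (0.0696 to 0.224). The sgKMT2B call also missed with only the 2 groups in the fit (0.0627).

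The calls of ANKRD37, ADM and BNIP3L were each lost in several fits. ANKRD37 was at 1.90 and 1.75 CPM in WT, 1.89 and 1.82 in sgKDM5C and 0.991 and 0.750 in sgKDM6A, while sgKMT2B had 1.25 and 1.18. It fell in sgKDM6A (-1.07, SE 0.37, adjusted p = 0.0437), beside a chromosome 4 median of 0.10, a call lost without any 1 of the 4 libraries (0.0925 to 0.207), with DESeq2 (0.126), with no filter (0.0642) and with only the 2 groups in the fit (0.071). Moreover, 35.2% of its exon bases lie opposite UFSP2 on the other strand. ADM, the vasodilator adrenomedullin, fell in sgKDM6A (-0.81, SE 0.25, adjusted p = 0.0284), lost without WT replicate 2 (0.217), sgKDM6A replicate 1 (0.16) or replicate 2 (0.0527) and with only the 2 groups in the fit (0.0577). BNIP3L, a mitophagy receptor, rose in sgKDM5C (0.38, SE 0.13, adjusted p = 0.0494), and that call was lost in several fits, among them those without WT replicate 2 (0.302) and without sgKDM5C replicate 1 (0.204) or replicate 2 (0.121). In sgKMT2B it passed without WT replicate 1 (0.44, adjusted p = 0.03). P4HA2, KDM3A and ERO1A, which act on collagen, on histone H3K9 and on disulfide bonds, passed in no line with all libraries; P4HA2 passed in sgKDM6A without its replicate 2 (-0.55, adjusted p = 0.0315).

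CA9, carbonic anhydrase 9, the best-known marker of hypoxic tumour cells and the least abundant member, had 0 or 1 count in every library. That is below the 3 counts, or 0.109 to 0.189 CPM, under which no level is read here, so it was not tested and has no fold change. The limit covers counting error only.

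Set against each other, the knockout lines differed in 6 to 10 members. Of 38 members, 7 were higher and 3 lower in sgKDM5C than in sgKDM6A, where 19.8% of all genes were called, 10.9% higher and 8.86% lower. In sgKDM5C against sgKMT2B 3 were higher and 3 lower, beside 22.1% of all genes (11.6% and 10.5%), and without sgKMT2B replicate 1 the count of 6 became 3. In sgKDM6A against sgKMT2B 6 were higher and 3 lower, beside 24.9% (12.4% and 12.5%). The shares of members called were 26.3%, 15.8% and 23.7%. Higher in sgKDM5C than in sgKDM6A were PFKL, ENO2, ENO3, SLC2A3, ADM, ANKRD37 and EPAS1, and lower were HK2, SLC16A7 and EGLN3. Higher in sgKDM5C than in sgKMT2B were ENO2, SLC16A7 and EPAS1, and lower were HK2, ALDOA and PFKFB2.

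In sgKDM6A against sgKMT2B, abundant enzymes of the central pathway passed with all libraries kept. Fewer members, and fewer of all genes, passed when any single library of either line was left out. Which of the calls below held in those fits was not read. GPI (0.48), TPI1 (0.26), PGK1 (0.24) and PKM (0.33) were higher in sgKDM6A than in sgKMT2B, with adjusted p between 0.00246 and 0.0285, as were ENO2 and SLC16A7. PFKL ran the other way (-0.82, SE 0.09, adjusted p = 1.99e-05), beside the low chromosome 21 median of sgKDM6A. VEGFA was also lower in sgKDM6A (-0.87, SE 0.17, adjusted p = 0.00231). SLC2A3 was lower in sgKDM6A than in sgKDM5C by a log2 difference of 4.21 (SE 0.24, adjusted p = 1.18e-07) and differed from sgKMT2B by -4.44 (SE 0.24, adjusted p = 3.33e-08). EPAS1 was higher in sgKDM5C than in sgKMT2B (1.12, SE 0.19, adjusted p = 0.00084) and than in sgKDM6A (0.64, SE 0.18, adjusted p = 0.026).

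Genes of the same pathways outside the set were read from lists. Of 40 tested genes of glucose metabolism, 4 rose and 6 fell in sgKDM5C, 4 rose and 10 fell in sgKDM6A, and 2 rose and 10 fell in sgKMT2B, with median changes of -0.01, -0.02 and 0.01. These are 25%, 35% and 30% of the list, beside 22.6%, 27.2% and 28.1% of all genes. Of 50 tested hypoxia-related genes, 7 rose and 10 fell in sgKDM5C, 9 rose and 9 fell in sgKDM6A, and 8 rose and 16 fell in sgKMT2B, with medians of -0.15, -0.14 and -0.15 beside those near 0 over all genes. The shares called in this list were 34%, 36% and 48%. In that list MAFF, a stress-induced transcription factor, fell in every line, with changes of -1.58, -1.96 and -1.60 (SE 0.25 each, adjusted p = 0.00082, 0.000125 and 0.000415). BHLHE40, a repressor that hypoxia induces, fell in every line as well, with changes of -1.0, -0.64 and -0.85 (adjusted p = 0.000186, 0.00211 and 0.000259). So did LOXL2 (-0.50, -1.36 and -0.64, adjusted p = 0.0222, 3.06e-05 and 0.00439) and RIOK3 (-0.375, -0.412 and -0.341, adjusted p = 0.0321, 0.0179 and 0.0414). TKT of the glucose list also fell in every line (-0.51, -0.33 and -0.29, adjusted p = 0.00235, 0.0197 and 0.0321). Genes named from these lists were picked after their values were seen. KCTD11 rose in every line (1.15, 0.78 and 1.10; adjusted p = 0.000801, 0.00618 and 0.000582).

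In sgKMT2B 11 of the 50 tested hypoxia-related genes were called with a log2 change of at least 1 in size, beside 1547 of all 17527. CXCR4, LOX and HMOX1, described next, were among them. So were STC1 (2.30), BHLHE41 (-1.74), RORA (-1.65) and HIF3A (4.32), the last at 0.0413 and 0.0650 CPM in WT, under 3 counts. CXCR4, a chemokine receptor, was at 3.26 and 3.90 CPM in WT, 7.79 and 6.81 in sgKDM5C and 7.29 and 6.97 in sgKDM6A, while sgKMT2B had 0.0803 and 0.197. It rose in the first 2 lines (1.04 and 1.0, adjusted p = 0.00812 and 0.00793) and fell in sgKMT2B (-4.63, SE 0.39, adjusted p = 2.91e-06). In sgKMT2B replicate 1 CXCR4 was under 3 counts (0.119 CPM), below which no level is read here, so the size of this fall is uncertain. LOX, an enzyme that crosslinks collagen, was at 10.8 and 8.97 CPM in WT and 2.21 and 1.89 in sgKMT2B (-2.27, SE 0.21, adjusted p = 6.79e-06). It rose in sgKDM6A (0.615, adjusted p = 0.0217) and did not pass in sgKDM5C (0.07, adjusted p = 0.821). HMOX1, the haem-degrading enzyme, went from 42.8 and 47.0 CPM in WT to 114 and 98.1 in sgKMT2B (1.24, SE 0.14, adjusted p = 4.89e-05). HMOX1 also rose in sgKDM6A (0.60, adjusted p = 0.00747) and fell in sgKDM5C (-0.58, adjusted p = 0.0124).

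The chromosome 10 genes of glycolysis and hypoxia, kept outside the set, are given for comparison, with no test of a difference from it. In sgKMT2B all 8 tested genes passed, 7 downward and DDIT4 upward (0.99), with a median of -0.55 beside the chromosome's -0.33. PFKFB3 (-0.85), PGAM1 (-0.44) and P4HA1 (-0.54) were among the 7. In sgKDM5C 1 rose and 3 fell, and in sgKDM6A 2 rose and 3 fell, where the chromosome's median was 0.02 and 0.00. The shares called were 100% in sgKMT2B, 50% in sgKDM5C and 62.5% in sgKDM6A, beside 28.1%, 22.6% and 27.2% of all genes. BNIP3, a mitophagy receptor, and MXI1, a repressor in the MYC network, fell in every line: the changes were -0.54, -0.74 and -0.53 for BNIP3 (adjusted p = 0.00265, 0.000212 and 0.00192) and -0.63, -0.72 and -0.57 for MXI1 (0.00164, 0.000466 and 0.00194). DDIT4, an inhibitor of mTOR signalling, rose in every line (0.68, 1.12 and 0.99, adjusted p = 0.00755, 0.000217 and 0.000466).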

How the data were processed

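Poly(A) RNA of HEK293T cells was sequenced as read pairs, per the labels' protocols. The authors deposited raw read counts per Ensembl gene, made with STAR and HTSeq 0.11.2 on GRCh38, per the submitters' processing notes. The sources used here do not state the annotation release or the strand setting. Members and lists were chosen with earlier results of these data known. Symbols, positions and exon lengths came from GENCODE 29.

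Counts of all 8 libraries were fitted with edgeR 4.0.16 (glmQLFit, glmQLFTest) in R 4.3.3, 1 coefficient per group, TMM factors and filterByExpr, leaving 17527 genes. P-values were adjusted (Benjamini-Hochberg) over all of them, and a call is an adjusted p under 0.05. The code was tested on simulated data. Replicates differed by more than sampling noise (chi-square per degree of freedom 7.57 to 15.3).

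Members were given in full where called with a log2 change of at least 1, called alike in all 3 lines, or most or least abundant in their role; others were named after their values were seen. Alternatives were RLE and upper-quartile factors, TMM without chromosome 10, 2 other filters, DESeq2 1.42.0, a replicate block, the 2 groups alone, and leaving out each library. Protein sequences were not used here.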

Additional observations from a re-analysis of the deposited data

How the results depend on the processing

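No member's called change against WT turned its direction under any alternative; between knockout lines the alternatives were read as counts of calls only. The count of members called against WT ran, when single libraries were left out, from 5 to 9 in sgKDM5C, 7 to 15 in sgKDM6A and 4 to 13 in sgKMT2B. It ran from 3 to 4 in sgKDM5C against sgKMT2B. Fewer libraries enter those fits, and the lone sample is assumed to vary like the other groups. A smaller share of all genes was called in each of them than with all libraries. Other settings kept every count within 1.5 times its value. DESeq2 gave 9, 11 and 10 calls against WT, beside 23.8%, 26% and 28% of all genes. Of calls against WT, 4 of 8, 7 of 12 and 4 of 11 held under every alternative, and 6, 9 and 9 with all libraries kept. The share of all called genes that held in this way was not counted. The labels tie no replicate numbers across groups. Deviations of same-numbered libraries correlated at 0.0826 to 0.182 between knockout lines and at -0.0179 to 0.007 between WT and a knockout line. A replicate block gave 10, 12 and 12 members called against WT, beside 26.5%, 31.5% and 31.8% of all genes. It moved the counts between knockouts from 10, 6 and 9 to 15, 7 and 9. The shares of all genes there went from 19.8%, 22.1% and 24.9% to 23.4%, 25.2% and 28.3%. With it VEGFA (adjusted p = 0.0386) and HIF1A (0.0389) passed in sgKDM5C and EGLN3 (0.0429) in sgKMT2B. Scaling moved the median of all genes by at most 0.031. Low counts limit the precision for CA9, SLC16A7 and ANKRD37.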
